A study of Mus musculus with 109 samples.

Results

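Axon guidance ligands and receptors are the cues, and the proteins that read them, by which growing axons and migrating neurons are drawn towards or pushed away from a place. They were taken from the cell count table by gene symbol. The rule uses no measured value, but it was chosen with earlier results of these data known. The symbols were the semaphorins of classes 3 to 7, the plexins, the neuropilins Nrp1 and Nrp2, the Eph receptors, the ephrins, the Robo receptors, the Slits, the netrins, the Unc5 receptors and Dcc. Sema6a, Sema6d, Plxna2, Plxna4 and Plxnb2 were left out. Of 59 symbols of this form, 4 were among those left out, so that 55 of the 15973 listed genes remained. They were 14 semaphorins, 13 Eph receptors, 8 ephrins, 6 plexins, 4 Unc5 receptors, 3 netrins, 2 neuropilins, 2 Robo receptors, 2 Slits and Dcc, or 27 ligands and 28 receptors.

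The cells came from P7 mouse cerebella, whose strain the labels give as C57BL/6 while the study's methods name ICR pups, and the labels name no engineered allele and no treatment. A Percoll density gradient, which enriches granule cell progenitors (GCPs) but can leave other cells, was followed by capture on C1 chips and 1 Smart-seq library per cell. The 109 cells fell into 6 library groups of 18 or 19 cells, and the labels do not say whether these groups came from separate animals. All p-values below therefore measure the spread between library groups, which may be technical.

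A cell had 3604792 counts in the median, with a range of 15071 to 8616017. A single cell had fewer than 100000 counts, and 2 cells had more than 12000 detected genes against at most 6420 in any other. Granule lineage genes were widespread. Zic1 reached 10 CPM (1e6 times the count over the cell's total) in 97 cells, Neurod1 in 105 and Pax6 in 85, while Atoh1, which marks GCPs, did so in 11. In 17 of 109 cells, 3 or more genes of another cell type reached 50 CPM: 10 cells for astroglia, 6 for the oligodendrocyte lineage, 5 for GABAergic neurons and 3 for microglia. Some cells met several lists. The 2 cells with more than 12000 detected genes each met those for astroglia, the oligodendrocyte lineage and microglia. Both were kept in the main comparisons.

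Netrins, Slits, semaphorins and ephrins are the 4 classical families of guidance cues. Netrins attract through Dcc and repel through Unc5 receptors, Slits repel through Robo receptors, semaphorins act through plexins, with neuropilins as partners for the secreted class 3, and ephrins signal in both directions with Eph receptors on the touching cell. In the cerebellum at this age, GCPs divide in the outer part of the external granular layer, and their postmitotic daughters, the granule cells (GCs), extend axons and migrate inwards. Loss of Unc5c is known to let granule cells spread beyond the rostral border of the cerebellum, and ephrin-B signalling is known to alter the response of granule cells to the chemokine Cxcl12.

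Cells were compared in 3 ways. Cycling cells had Mki67, the gene of the proliferation antigen KI67, at 100 CPM or more (32 cells, 3 to 8 per library group), and non-cycling cells had it below 10 CPM (75 cells, 10 to 15 per group). Dcx-high cells had Dcx, a microtubule-associated protein of young neurons, at 100 CPM or more (83 cells, 12 to 16 per group), and Dcx-low cells had it below 10 CPM (9 cells, 1 to 3 per group). Non-cycling cells were also split at their median Dcx of 1781 CPM into 38 with more and 37 with less. For each library group, the counts of all cells in a class were added up, and these sums were compared by edgeR's quasi-likelihood test at the study's threshold, an adjusted p-value under 0.01. For single genes, mean log2(CPM + 1) of the 2 classes was subtracted within each library group and the 6 differences were compared by an exact two-sided sign-flip test, whose smallest possible p is 0.03125. Gene positions are given on GRCm38.

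Sequence upstream of 3 of the members that were higher in Dcx-high cells in all 6 library groups is shown, namely Unc5b, Ephb1 and Efnb2. Dcx-low cells held only 2, 1 and 0 counts of them. For Ephb1 and Efnb2 the direction of the sums was fixed in advance by the limit for testing a gene. A link between sequence and level was not tested. Each sequence is the 250 bases before the RefSeq transcription start on GRCm38.p6, the assembly also called mm10. It is read 5′ to 3′ on the gene's own strand, which is the minus strand for all 3. They lie at chr10:60831582-60831831, chr9:102354694-102354943 and chr8:8661243-8661492. Capitals mark the GC box GGGCGG or its reverse complement CCGCCC and the CCAAT box CCAAT or its reverse complement ATTGG, which do not overlap each other here.
Unc5b: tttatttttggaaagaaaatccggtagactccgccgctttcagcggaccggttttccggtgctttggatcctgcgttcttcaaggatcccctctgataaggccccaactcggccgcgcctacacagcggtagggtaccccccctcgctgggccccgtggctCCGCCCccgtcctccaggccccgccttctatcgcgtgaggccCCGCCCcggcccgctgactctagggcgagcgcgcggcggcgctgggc
Ephb1: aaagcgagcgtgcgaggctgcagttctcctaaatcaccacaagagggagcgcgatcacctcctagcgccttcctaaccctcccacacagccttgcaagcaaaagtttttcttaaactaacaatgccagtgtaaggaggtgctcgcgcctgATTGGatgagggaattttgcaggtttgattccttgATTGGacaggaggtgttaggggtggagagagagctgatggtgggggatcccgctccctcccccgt
Efnb2: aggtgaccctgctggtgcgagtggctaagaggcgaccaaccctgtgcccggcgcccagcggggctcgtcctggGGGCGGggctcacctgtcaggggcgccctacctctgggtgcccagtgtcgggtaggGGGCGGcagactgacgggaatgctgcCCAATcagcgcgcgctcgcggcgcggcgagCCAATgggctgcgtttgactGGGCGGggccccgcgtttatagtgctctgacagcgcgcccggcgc
The Unc5b window held 2 GC boxes, the Ephb1 window 2 CCAAT boxes and the Efnb2 window 5 boxes of both kinds. Of the windows of 250 bases before 32851 mouse transcription starts, 32.7% held a GC box and 33.8% a CCAAT box on either strand. The 49 members with an entry had 62 such windows, of which 44 held a GC box and 17 a CCAAT box. The E-box CAGCTG, the same on both strands, was in 13% of all windows and in 9 of the 62.

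Every cell had at least 1 guidance gene at 10 CPM or more. A cell had 5 of the 55 members at 10 CPM or more in the median (range 1 to 26), and the 2 cells of unusual depth held 25 and 26 against at most 14 elsewhere. At least 1 cell reached 10 CPM for 51 members, and 10 or more cells did so for 21. Epha2, Epha4, Epha5 and Epha10 never reached it. In 31 members, over 50% of all CPM came from 1 cell, and in 12 over 90% did. One of the 12 was Slit2, a repellent for axons that carry Robo receptors, with 6296 CPM in 1 cell and 29.0 CPM in the next. The 2 deep cells held the highest value of 0 members.

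Unc5c was the most widespread member. It reached 10 CPM in 75 of 109 cells (68.8%, Wilson 95% interval 59.6 to 76.7%) and had at least 1 count in 105. The limit of 10 CPM was set to lie above low counts that cells of a library group share. Shares at 1 count may therefore overstate the cells with a gene. Dcc followed with 42 cells, Robo2 with 33, Plxnc1 with 32, Plxna3 and Ephb2 with 29 each, Ntn4 with 28, Sema4g with 24, Ntn1 with 23, Ephb1 with 22 and Plxnb1 with 20. A second tier held Efnb2 and Sema4b with 19 cells, Epha7 with 15, Sema4f and Epha3 with 12, Sema3d, Robo1, Sema4d and Sema7a with 11, Unc5b with 10, Sema5a with 9, Efnb1 with 8 and Sema5b with 7. The remaining 31 members reached 10 CPM in 0 to 7 cells. The reads carry no molecular identifiers, so intervals and limits cover counting error only.

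Scaled to the length of the merged exons, Unc5c averaged 40.8 CPM per kb over all cells. Plxna3 had 33.3 CPM per kb, Dcc 18.5, Ntn4 15.3, Efna4, found in 7 cells, 13.6, Efnb2 12.9 and Robo2 11.8 on the same scale. The library group means of Unc5c ran from 27.0 to 59.5 CPM per kb, those of Plxna3 from 0.453 to 89.5 and those of Dcc from 2.23 to 34.8. The ranges of all neighbours in this order overlapped, so the order of these levels was not fixed beyond the spread of library groups. Exons of 15 members, 4 of them among the 24 most widespread, overlap exons of another gene. The counting step is not stated to use strand, so reads of Unc5c and Gm15688, of Ephb1 and Gm26846 and of Plxnb1 and Gm7628, each on opposite strands, cannot be told apart where their exons overlap, and neither can those of Plxnc1 and Gm48718 on the same strand.

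**Figure D1:**
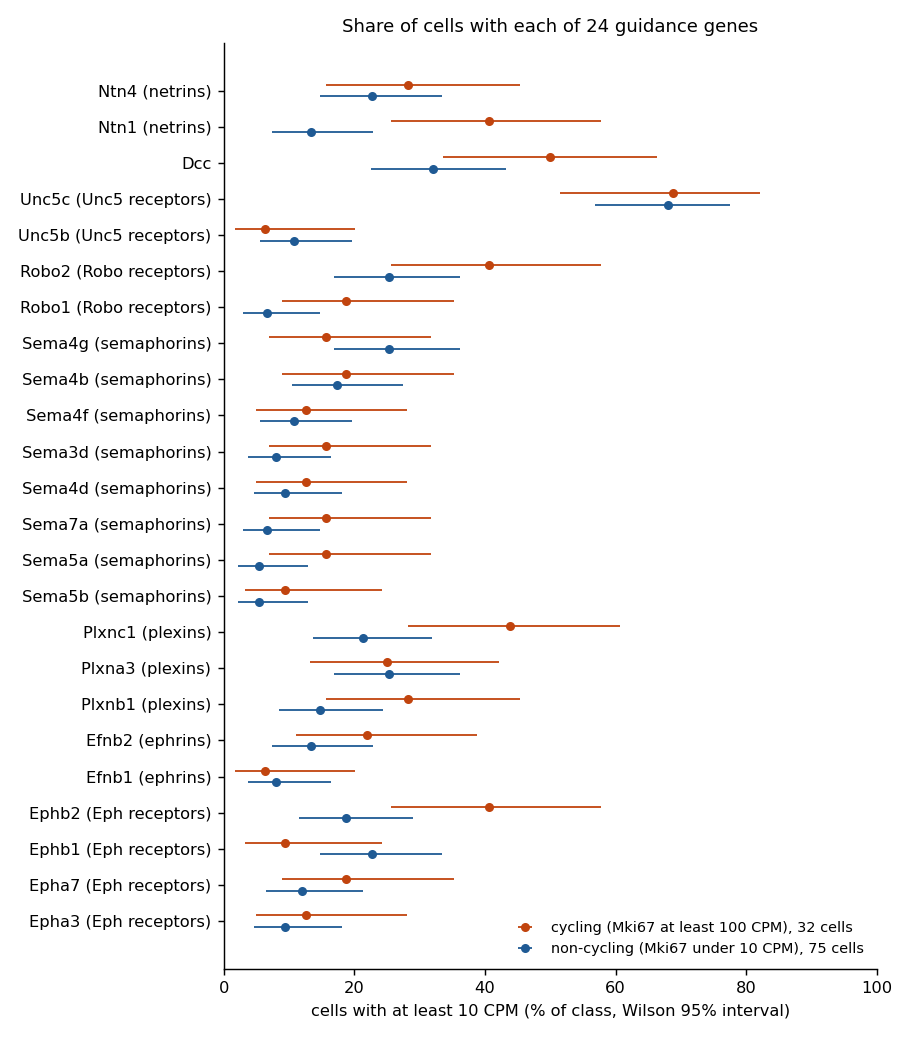
Share of cells at 10 CPM or more (x axis, % of class) for the 24 most widespread members, ordered by family, in 32 cycling (orange) and 75 non-cycling cells (blue), with Wilson 95% intervals as bars. The intervals treat cells as independent and leave out the spread between library groups. Ntn1 stood at 40.6% against 13.3% and its intervals narrowly did not overlap, with bounds of 25.5% and 22.8%. Its cycling cells include the cells of unusual depth. Unc5c stood at 68.8% against 68.0%.

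Between cycling and non-cycling cells, the netrin ligand Ntn1 was higher in cycling cells in every library group, and Sema4g and Unc5b were lower in every library group. Among the 24 most widespread members, Ntn1 alone had shares of cells whose intervals did not overlap, with a lower bound of 25.5% against an upper bound of 22.8%. The 2 cells of unusual depth, both cycling, were among its cells, at 24.5 and 57.6 CPM. Intervals without them were not computed, and how many of all genes had intervals apart was not counted. These intervals treat cells as independent and leave out the spread between library groups. Of the 30 members tested, 0 passed the adjusted threshold by edgeR. By DESeq2 it was 0 of the 34 members with an adjusted p-value. Over 12585 genes with a p-value, adjusted or not, 2.99% passed, so the bases of these shares may differ. The quasi-likelihood test called 0.022% of 9084 genes, namely Tacc3 and Cdc20, both mitotic genes and both higher in cycling cells. At an unadjusted p under 0.05, 1 member was higher and 1 lower, against 2.94% and 4.39% of all genes tested. In all 6 library groups, 1 member was higher and 2 were lower in mean log2(CPM + 1), against 7.88% and 1.17% of all genes. The median log2 fold change of the 30 members was -1.13 against -0.18 for all genes, and the median mean log2 difference was 0.13 against 0.43. Cycling cells also had more detected genes (median 4968 against 4193). The number of members per cell was 2.12 ± 2.35 higher in cycling cells (mean and SD of the library group differences, n = 6), higher in 4 of 6 groups (exact two-sided sign-flip test, p = 0.125). In both classes the median was 5, and the 2 cells of unusual depth, with 25 and 26 members, were both cycling cells.

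Ntn1 (chromosome 11, 68209364 to 68400823, minus strand), the laminin-related secreted cue that acts on Dcc and Unc5 receptors, reached 10 CPM in 13 of 32 cycling cells and 10 of 75 non-cycling cells. In the cycling sums it had 9.88 CPM in the lowest, 29.2 in the median and 515 in the highest library group, against 0.552, 6.99 and 28.9 CPM in the non-cycling sums. In each library group the cycling sum was the higher of the pair, but the ranges over groups overlapped. In a sum, fewer cells with a gene and less of its RNA per cell cannot be told apart, which is why the numbers of cells are given beside it. Mean log2(CPM + 1) was 1.94 ± 0.93 higher in cycling cells (SD, n = 6), higher in 6 of 6 library groups (exact two-sided sign-flip test, p = 0.03125, adjusted over all genes 0.345). The share of cells was also higher in 6 of 6 groups.

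The log2 fold change of Ntn1 between the sums was 3.14 (standard error, SE, 1.41, adjusted p = 0.670 by edgeR's quasi-likelihood test), and it fell to 1.77 without library group 2, which held the cell with 1474 CPM. After thinning every cell to 1110182 counts, 13 of 32 and 10 of 75 cells still reached 10 CPM. Genes of other cell types were found in 6 of the 32 cycling and 11 of the 75 non-cycling cells, and 7 of these 17 cells reached 10 CPM of Ntn1 against 16 of the other 92. Without them the mean difference was 1.91 (exact p = 0.0625), and without the cells of unusual depth it was 1.70 (exact p = 0.0625).

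Ntn4, a netrin related to laminin beta chains that binds basement membranes, reached 10 CPM in 9 of 32 cycling and 17 of 75 non-cycling cells. Its sums ran from 0 to 92.1 CPM in cycling and from 0.170 to 165 CPM in non-cycling cells and overlapped throughout. Ntn3 reached 10 CPM in a single cell.

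The netrin receptors differed among themselves. Unc5c (chromosome 3, 141465216 to 141834924, plus strand), a receptor for netrin repulsion, was present in nearly equal shares of cells, 22 of 32 cycling and 51 of 75 non-cycling, but at lower levels in the cycling cells that had it (median 125 against 491 CPM among cells at 10 CPM or more). Its sums were 59.4, 297 and 945 CPM in cycling cells (lowest, median and highest library group) and 560, 933 and 1871 CPM in non-cycling cells. The ranges overlapped, and the log2 fold change of -1.35 (SE 0.76) did not pass (adjusted p = 0.725, edgeR quasi-likelihood test). The mean of log2(CPM + 1) differed by -0.44 ± 2.08 (SD, n = 6), with 3 groups on each side of 0 (exact two-sided sign-flip test, p = 0.625). All 5 cells with GABAergic genes were non-cycling, and each had Unc5c, at 1118 to 9733 CPM. Without all 17 cells with genes of another type the log2 fold change was -0.57.

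Dcc, the receptor for netrin attraction, reached 10 CPM in 16 of 32 cycling and 24 of 75 non-cycling cells. Its sums were 1.38, 147 and 1142 CPM against 39.3, 151 and 519 CPM, and these ranges overlapped. The log2 fold change was 0.62 (SE 1.05, adjusted p = 0.924 by edgeR), and mean log2(CPM + 1) was 1.76 ± 2.45 higher (SD, n = 6), in 4 of 6 groups (exact p = 0.156). Unc5b (chromosome 10, 60762593 to 60831581, minus strand), another receptor of the Unc5 family, was found in few cells, 2 of 32 cycling and 8 of 75 non-cycling. Its sums were 0, 0.843 and 14.9 CPM in cycling and 0.0905, 22.4 and 205 CPM in non-cycling cells, which overlapped. Unc5b was lower in cycling cells in 6 of 6 library groups, by -0.44 ± 0.41 on the log2(CPM + 1) scale (exact two-sided sign-flip test, p = 0.03125, adjusted 0.345), and its log2 fold change was -4.68 (SE 2.10, adjusted p = 0.670 by edgeR).

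**Figure D2:**
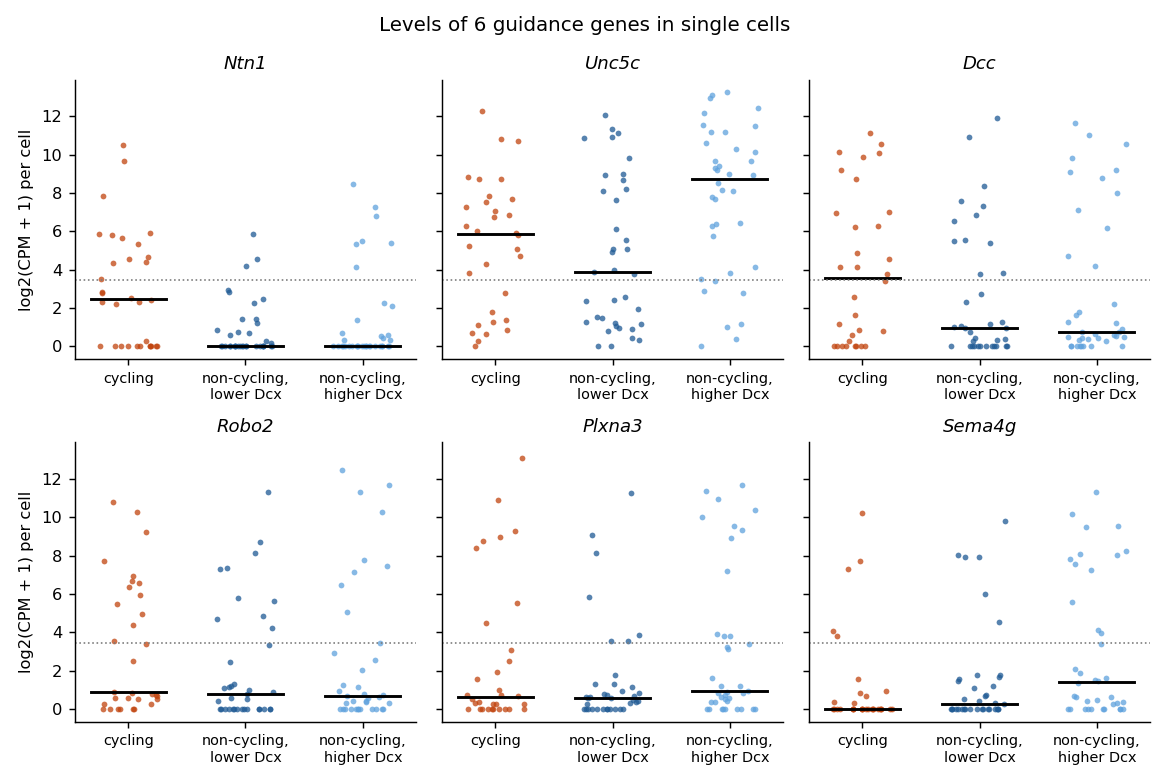
Level per cell, log2(CPM + 1) on the y axis, of Ntn1, Unc5c, Dcc, Robo2, Plxna3 and Sema4g in cycling cells (32, orange), non-cycling cells below the median Dcx (37, dark blue) and non-cycling cells at or above it (38, light blue). Points are cells, bars are medians and the dotted line is 10 CPM. Unc5c filled the upper range in non-cycling cells with more Dcx, whereas Ntn1 points above the line were most frequent among cycling cells.

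Unc5c and Dcc, which read the same ligand, were together at 10 CPM or more in 33 of 109 cells. Unc5c stood alone in 42 cells, Dcc alone in 9, and neither was at that level in 25. Both were found in 13 of 32 cycling and 18 of 75 non-cycling cells, and in 0 of 9 Dcx-low cells. Unc5c and its ligand Ntn1 were together in 9 of 32 cycling and 6 of 75 non-cycling cells, and Dcc and Ntn1 in 8 of 32 and 3 of 75. Rank correlations between members over cells were weak. Among 55 pairs of the 11 members with 20 or more cells, Spearman's rank correlation ran from -0.11 for Unc5c and Robo2 to 0.25 for Dcc and Ephb2 over 109 cells, which share library groups and differ in depth.

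**Figure D3:**
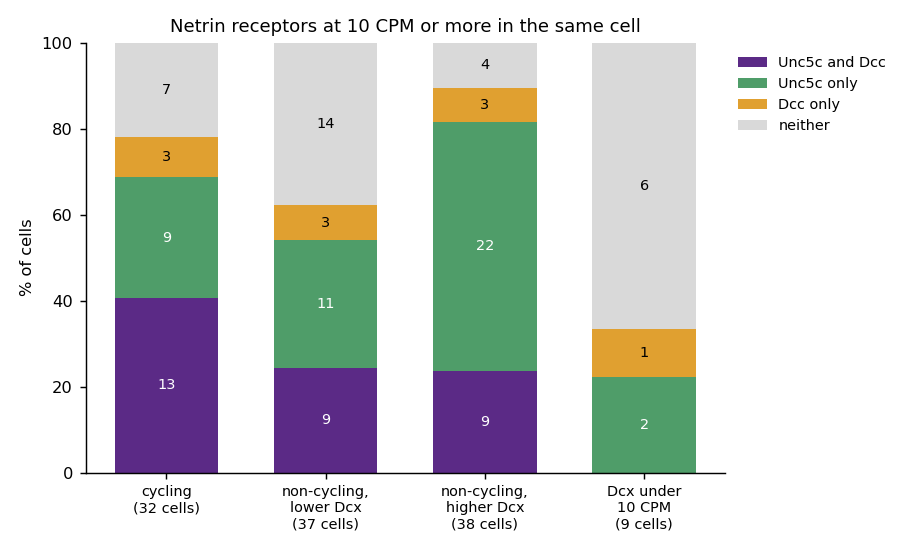
Share of cells (y axis, %) with Unc5c and Dcc, Unc5c only, Dcc only or neither at 10 CPM or more in cycling, non-cycling lower-Dcx, non-cycling higher-Dcx and Dcx-low cells, with numbers of cells in the bars. The 9 Dcx-low cells belong partly to the other classes. Cells with Unc5c only numbered 22 of 38 among non-cycling cells with more Dcx and 9 of 32 among cycling cells.

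Robo2 and Robo1, receptors through which Slits repel, were found at 10 CPM or more in 13 and 6 of 32 cycling cells and in 19 and 5 of 75 non-cycling cells. Robo2 (chromosome 16, 73891839 to 74411825, minus strand) had sums of 1.64, 46.2 and 247 CPM in cycling and 2.79, 115 and 741 CPM in non-cycling cells (lowest, median and highest), which overlapped. Its log2 fold change was -1.93 (SE 1.27, adjusted p = 0.763 by edgeR's quasi-likelihood test), whereas mean log2(CPM + 1) was 0.14 ± 1.47 higher (SD, n = 6), in 4 of 6 groups (exact p = 0.844), so the direction depended on the measure. The ligands were rare, with Slit2 at 10 CPM in 5 of 109 cells and Slit1 in 1.

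Semaphorins were found in many cells but each gene in few. Together, the 14 listed semaphorins reached 10 CPM in 73 of 109 cells, and 11 of them were tested. Sema4g (chromosome 19, 44989101 to 45003397, plus strand), a membrane-bound class 4 semaphorin, was the most widespread. It was found in 5 of 32 cycling and 19 of 75 non-cycling cells. Its sums were 0, 10.4 and 201 CPM against 37.6, 63.4 and 494 CPM. The ranges overlapped, but mean log2(CPM + 1) was lower in cycling cells in 6 of 6 library groups, by -1.22 ± 0.89 (SD, n = 6, exact two-sided sign-flip test, p = 0.03125, adjusted 0.345). The log2 fold change of the sums was -1.81 (SE 1.55, adjusted p = 0.828 by edgeR). At least 1 count of Sema4g was found in 11 of 32 cycling and 47 of 75 non-cycling cells, and after thinning to 1110182 counts in 9 of 32 and 39 of 75. Such shares include low counts that cells of a library group can share. Of the 17 cells with genes of another type, 8 reached 10 CPM of Sema4g, as did 16 of the other 92, and without them the difference was -1.68 (exact p = 0.0625). Of the 5 with GABAergic genes, all non-cycling, 2 reached 10 CPM of Sema4g.

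Of the other class 4 semaphorins, Sema4b was found in 6 of 32 cycling and 13 of 75 non-cycling cells, Sema4f in 4 and 8, and Sema4d, a ligand of Plxnb1, in 4 and 7. Sema7a, a ligand anchored to the membrane by a lipid and bound by Plxnc1, was found in 5 cells of each class. Sema3d, a secreted semaphorin, was found in 5 cycling and 6 non-cycling cells. The class 5 genes were found in larger shares of the cells with genes of another type. Sema5a reached 10 CPM in 6 of the 17 cells that carried genes of astroglia, oligodendrocytes, GABAergic neurons or microglia and in 3 of the other 92, and Sema5b in 5 of 17 and 2 of 92. The highest value of Sema5b, 1932 CPM, was in a cell with astroglial and oligodendrocyte genes.

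Of the plexins, the receptors of semaphorins, Plxnc1 reached 10 CPM in 14 of 32 cycling and 16 of 75 non-cycling cells, a larger share in cycling cells in 6 of 6 library groups. Its levels were lower in the cycling cells that had it, with medians of 58.5 and 242 CPM, and its sums of 4.67, 69.4 and 204 CPM and of 27.9, 48.0 and 113 CPM overlapped. At least 1 count was found in 19 of 32 (59.4%) and 46 of 75 cells (61.3%), so the larger share in cycling cells was seen at 10 CPM and not at 1 count. Low counts can be shared within a library group, so the shares at 1 count do not decide between the 2 limits. Plxna3, a receptor for class 3 semaphorins together with neuropilins, was found in 8 of 32 and 19 of 75 cells, and Plxnb1 in 9 and 11. The neuropilins were scarce, with Nrp1 at 10 CPM in 5 of 109 cells and Nrp2 in 2. Ligand and receptor of a pair were found in the same cell in 5 of 109 cells for Plxnc1 and Sema7a, 7 for Plxna3 and Sema3d, and 2 for Plxnb1 and Sema4d. Each of these 3 ligands reached 10 CPM in only 11 cells, which limits the joint counts.

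Among the Eph receptors, kinases that read ephrins on touching cells, 9 of 13 reached 10 CPM in at least 1 cell and 4 did so in 10 or more. Ephb2, a receptor for ephrin-B ligands, was found in 13 of 32 cycling and 14 of 75 non-cycling cells, with sums of 0, 101 and 182 CPM and of 12.5, 127 and 400 CPM that overlapped. Ephb1, a receptor of the same class, was found in 3 of 32 and 17 of 75 cells, with sums of 0, 4.27 and 20.3 CPM against 0.0839, 45.4 and 84.0 CPM. Epha7 and Epha3, receptors for ephrin-A ligands, were found in 6 and 4 cycling cells and in 9 and 7 non-cycling cells. Ephb1 stood lower in cycling cells in 5 of 6 library groups.

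Efnb2, a transmembrane ligand of EphB receptors, was found at 10 CPM or more in 7 of 32 cycling and 10 of 75 non-cycling cells, and Efnb1, of the same class, in 2 and 6. The ephrin-A ligands, which a lipid anchors to the membrane, reached that level in at most 7 of 109 cells, the number for Efna4. Ephb2 and Efnb2 were found together in 5 of 109 cells and Ephb1 and Efnb2 in 6.

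Dcx-high cells had Unc5c, Unc5b, Dcc, Ephb1, Ephb2, Epha7, Efnb2 and Sema4f at higher levels than Dcx-low cells in all 6 library groups. A Dcx-low cell had a median of 3 members (range 2 to 6) and a Dcx-high cell 5 (range 1 to 26). Of the 20 members tested, 0 passed the adjusted threshold of 0.01 by edgeR's quasi-likelihood test, which called 0% of 7670 genes. By DESeq2 9 of the 28 members with an adjusted p-value passed it. Over 12252 genes with a p-value, adjusted or not, 12.2% passed, so the bases of these shares may differ. At an unadjusted p under 0.05, 9 of 20 members were higher and 0 lower in Dcx-high cells, against 17.4% and 1.56% of all genes. In all 6 library groups 8 of the 20 were higher and 0 lower, against 9.35% and 0.691% of all genes. Of the 8, Efnb2 and Sema4f had no count in Dcx-low cells. They could be among the tested genes only with counts in all 6 Dcx-high sums, so their direction was fixed in advance. Ephb1 had 1 count in Dcx-low cells, and Epha7 and Unc5b had 2 each. The Dcx-low sums of Ephb1 and Epha7 lay below the filter's minimum, so both could be tested only through all 6 Dcx-high sums. The direction of their sums was likewise fixed in advance. At an adjusted p under 0.05 edgeR would call 6 members among 655 genes, of which 653 were higher. The comparison sets 83 cells against 9, with a single Dcx-low cell in 4 of the 6 library groups, so that a gene present in few cells is often at 0 in the smaller class. Both classes held cycling cells, with Mki67 at 0 to 1989 CPM (median 1.80) in Dcx-low and 0 to 3984 CPM (median 0.627) in Dcx-high cells. An effect of cycling on this comparison was not tested. The median log2 fold change was 3.37 for the members and 0.32 for all genes, and that of all genes moved to -0.47 with RLE scaling and 0.77 with library totals.

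Unc5c was the member with the most cells behind this difference. It reached 10 CPM in 61 of 83 Dcx-high cells (73.5%, interval 63.1 to 81.8%) and in 2 of 9 Dcx-low cells (22.2%, interval 6.32 to 54.7%). Its sums were 534, 923 and 1137 CPM (lowest, median and highest library group) against 0, 1.19 and 67.5 CPM. The groups did not overlap. Mean log2(CPM + 1) was 4.09 ± 2.01 higher (SD, n = 6) in 6 of 6 library groups (exact two-sided sign-flip test, p = 0.03125, adjusted 0.311), and edgeR's quasi-likelihood test gave an adjusted p of 0.0673.

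Dcc reached 10 CPM in 35 of 83 Dcx-high and 1 of 9 Dcx-low cells. Its sums of 34.0, 137 and 539 CPM did not overlap those of 0, 0.242 and 13.3 CPM. Mean log2(CPM + 1) was 2.57 ± 1.28 higher (SD, n = 6) in 6 of 6 groups (exact p = 0.03125, adjusted 0.311), with an adjusted p of 0.0732 by edgeR. Unc5b reached 10 CPM in 10 of 83 and 0 of 9 cells, and its mean was 0.93 ± 0.68 higher in 6 of 6 groups (exact p = 0.03125), although its sums of 0.109, 16.7 and 191 CPM overlapped those of 0, 0 and 0.372 CPM.

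The Eph receptors Ephb2, Ephb1 and Epha7 were at 10 CPM or more in 25, 18 and 12 of 83 Dcx-high cells and in 0 of 9 Dcx-low cells, a count that allows shares of up to 33.3%. Ephb2 (chromosome 4, 136647539 to 136835988, minus strand) had sums of 19.4, 132 and 339 CPM against 0, 0.203 and 1.29 CPM. They did not overlap, mean log2(CPM + 1) was 2.37 ± 0.80 higher (SD, n = 6) in 6 of 6 groups (exact p = 0.03125, adjusted 0.311), and the adjusted p was 0.0215 by edgeR. Ephb1 (chromosome 9, 101922128 to 102354693, minus strand) had sums of 5.73, 37.0 and 56.6 CPM against 0, 0 and 0.226 CPM, which did not overlap, and was 1.37 ± 0.69 higher in 6 of 6 groups (exact p = 0.03125, edgeR adjusted p = 0.0185). Epha7 had sums of 2.49, 30.4 and 102 CPM against at most 0.193 CPM. The Dcx-low sums of Ephb1 and Epha7 lay below the filter's minimum, so both could be tested only through all 6 Dcx-high sums. Their lack of overlap was therefore fixed in advance.

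Efnb2 (chromosome 8, 8617434 to 8661242, minus strand) and Sema4f (chromosome 6, 82911885 to 82939769, minus strand) had no count in any Dcx-low cell. Efnb2 had sums of 10.3, 32.6 and 292 CPM in Dcx-high cells, with a mean log2 difference of 1.56 ± 0.99 (SD, n = 6). Sema4f had sums of 0.375, 20.5 and 217 CPM, with a mean log2 difference of 1.01 ± 0.59. Both were higher in 6 of 6 groups (exact two-sided sign-flip test, p = 0.03125 each). Without a count in Dcx-low cells, both could be among the tested genes only with counts in all 6 Dcx-high sums. This outcome was therefore fixed in advance. Efnb2 reached 10 CPM in 15 of 83 Dcx-high cells (18.1%, interval 11.3 to 27.7%) and Sema4f in 11 (13.3%, interval 7.56 to 22.2%), and both intervals overlapped that of 0 of 9 cells (0 to 29.9%). Of the 24 most widespread members, only Unc5c had intervals that did not overlap, where intervals treat cells as independent.

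Other members were found on both sides. Robo2 reached 10 CPM in 27 of 83 and 2 of 9 cells, and its sums of 6.53, 126 and 615 CPM overlapped those of 0, 0.186 and 595 CPM, with a mean log2 difference of 0.87 ± 2.80 (SD, n = 6, exact p = 0.5). Plxna3 was found in 22 of 83 and 3 of 9 cells, Sema4g in 19 and 2, Sema4b in 15 and 2, Ntn4 in 22 and 2, and Ntn1 in 17 and 1. Their sums overlapped.

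Of the 9 Dcx-low cells, 3 carried genes of another type, against 13 of 83 Dcx-high cells. GABAergic genes were found in 5 of these 83 and 0 of the 9. The summed level of the 10 astroglial genes ran from 0.321 to 26287 CPM with a median of 556 in Dcx-low cells, with only Gfap at 0, and from 0.277 to 40513 CPM with a median of 209 in Dcx-high cells. The 12 granule lineage genes summed to 540 to 19495 CPM (median 5905) against 1617 to 32719 CPM (median 10600). Without the cells that carried such genes, 4 library groups kept both classes, and the mean log2 difference was 3.28 for Unc5c and 1.27 for Unc5b (exact p = 0.125 each, the smallest possible with 4 groups).

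**Figure D4:**
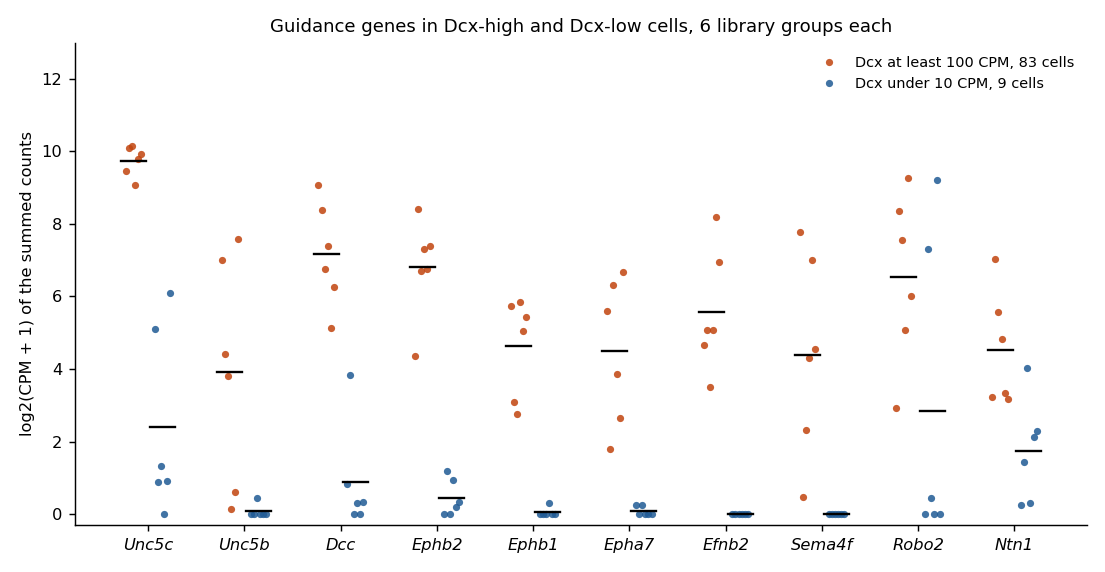
Level of 10 members, log2(CPM + 1) of the counts summed over a class on the y axis, in Dcx-high (orange) and Dcx-low cells (blue). Each point is 1 of 6 library groups and bars are means of the points. Unc5c, Dcc, Ephb2, Ephb1, Epha7, Efnb2 and Sema4f did not overlap between the classes, while Unc5b, Robo2 and Ntn1 did. For Ephb1, Epha7, Efnb2 and Sema4f this was fixed in advance by the filter for testing. Most Dcx-low sums hold a single cell, and how many of all genes lacked overlap was not counted.

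Within the non-cycling cells, Unc5c and Plxna3 were higher in cells with more Dcx in all 6 library groups. Of the 21 members tested, 0 passed the adjusted threshold by edgeR, which called 0% of 6681 genes. By DESeq2 1 of the 27 members with an adjusted p-value passed. Over 11358 genes with a p-value, adjusted or not, 3.7% passed, so the bases of these shares may differ. The member was Epha8, a receptor for ephrin-A ligands that lies outside the naming rule and was chosen after its value was seen. Epha8 was lower with more Dcx and reached 10 CPM in 2 of 109 cells. At an unadjusted p under 0.05, 2 of the 21 members tested were higher (Unc5c and Sema4f) and 0 lower, against 2.39% and 2.77% of all genes. In all 6 library groups 2 were higher (Unc5c and Plxna3) and 0 lower, against 1.39% and 1.65% of all genes. The median log2 fold change was 0.60 for the members and 0.03 for all genes tested.

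Unc5c reached 10 CPM in 31 of 38 cells with more Dcx (81.6%, interval 66.6 to 90.8%) and in 20 of 37 with less (54.1%, interval 38.4 to 69%). Its sums were 495, 1758 and 2621 CPM (lowest, median and highest library group) against 8.66, 281 and 673 CPM. The ranges overlapped through the lowest group of the first, library group 4, whose sum of 495 CPM lay below its partner's 604 CPM. Mean log2(CPM + 1) was 3.27 ± 2.43 higher (SD, n = 6) in 6 of 6 library groups (exact two-sided sign-flip test, p = 0.03125, adjusted 0.875), and the log2 fold change was 2.45 (SE 0.79, adjusted p = 0.948 by edgeR's quasi-likelihood test). Without the 11 non-cycling cells that carried genes of another type, the mean difference was 2.67 (exact p = 0.03125) and the log2 fold change 1.57. All 5 cells with GABAergic genes lay in the class with more Dcx and 0 in the other. The 6 GABAergic marker genes summed to 0 to 9697 CPM (median 1.62) with more Dcx and to 0 to 3094 CPM (median 1.01) with less, with Pvalb at 0 in both.

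Over all 109 cells, the median of Unc5c was 16.8 CPM in the 36 cells with the least Dcx, 62.3 in the next 36 and 219 in the 37 with the most, and 58.3%, 72.2% and 75.7% of these cells reached 10 CPM. These bins held 17, 12 and 3 cycling cells. Spearman's rank correlation between Unc5c and Dcx was 0.31 over the 109 cells. For the other widespread members it lay closer to 0, at 0.26 for Sema4g, 0.12 for Dcc, 0.07 for Robo2 and -0.12 for Ntn1. Dcc and Ephb2 were found most often in the middle bin, in 18 and 15 of 36 cells, against 12 and 5 in the lowest and 12 and 9 in the highest.

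**Figure D5:**
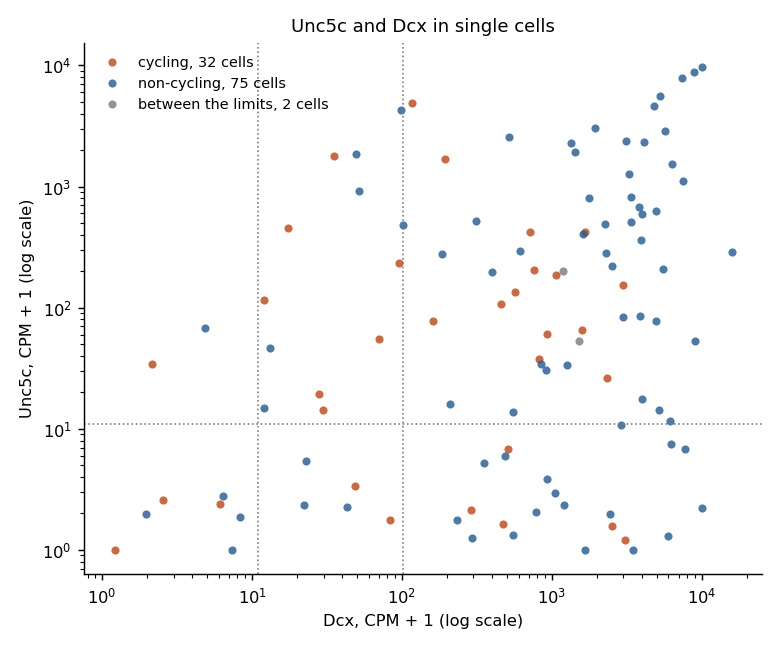
Unc5c (y axis) against Dcx (x axis) in 109 cells, both as CPM + 1 on log scales, with cycling cells in orange, non-cycling cells in blue and 2 cells between the Mki67 limits in grey. Dotted lines mark 10 CPM of Unc5c and 10 and 100 CPM of Dcx. Of the 9 cells left of the first vertical line, 2 lay above the Unc5c line.

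Plxna3 (chromosome X, 74329066 to 74344689, plus strand) was found in 12 of 38 non-cycling cells with more Dcx and in 7 of 37 with less. Its sums were 2.23, 402 and 515 CPM against 0, 4.25 and 277 CPM, which overlapped. Mean log2(CPM + 1) was 1.69 ± 1.29 higher (SD, n = 6) in 6 of 6 groups (exact p = 0.03125, adjusted 0.875), and the log2 fold change was 2.21 (SE 1.68, adjusted p = 1 by edgeR). Sema4f was found in 7 of 38 and 1 of 37 cells and Sema4g in 13 and 6. Dcc was found in 12 cells of each class, with sums of 8.67, 174 and 302 CPM and of 0.474, 66.4 and 731 CPM that overlapped and a mean log2 difference of 0.40 ± 1.97 (SD, n = 6, exact p = 0.594). Its log2 fold change was -0.07 (SE 1.27, adjusted p = 1 by edgeR). Robo2 was found in 9 and 10 cells, with a mean log2 difference of 0.56 ± 2.62 (SD, n = 6, exact p = 0.656) and a log2 fold change of 2.33 (SE 1.56, adjusted p = 1 by edgeR).

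The proteins that carry guidance signals inside the cell, such as collapsin response mediator proteins and Pak kinases, were examined as a list of which 46 genes were in the table. Between cycling and non-cycling cells 37 were tested, 0 were called, and 0 were higher and 2 lower at an unadjusted p under 0.05 by edgeR (2.94% and 4.39% of all genes). Between Dcx-high and Dcx-low cells 8 of 34 were higher and 0 lower (17.4% and 1.56% of all genes), and among non-cycling cells 3 of 33 were higher and 2 lower with more Dcx (2.39% and 2.77%). A further list of guidance cues and receptors outside the 10 families, such as Neo1, Draxin and Cxcr4, had 18 listed genes. Of these, 1 of 12 was higher in cycling cells, 2 of 11 in Dcx-high cells and 0 of 10 in non-cycling cells with more Dcx, and 0 were lower, against the same shares of all genes. None of either list passed the adjusted threshold in any comparison.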

How the data were processed

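The deposited table holds raw read counts for 15973 genes in 109 cells. Per the labels and the study's methods, the authors aligned Smart-seq reads with STAR 2.4.1d to mm10 and counted them per gene with HTSeq 0.6.1. Strand use in counting is not given in the sources used here. Library groups were read from the cell names in the labels. The members, the lists of other genes and the tests were chosen with earlier results of these data known.

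CPM was 1e6 times a count over the cell's total. Counts were summed per class and library group and tested without a block by edgeR 4.0.16 (TMM factors, filterByExpr, glmQLFit, glmQLFTest, Benjamini-Hochberg adjustment) in R 4.3.3. The test scripts were tested on simulated data. Mean log2(CPM + 1) per class, with a pseudocount of 1 CPM, was compared by exact sign-flip tests in Python 3.11.15. Wilson intervals are at 95% and treat the cells of a class as independent. Promoters came from RefSeq and gene models from GENCODE, both on GRCm38, and all 55 symbols matched a GENCODE gene. Values are given for the 24 members with the most cells at 10 CPM or more, and for up to 5 higher and 5 lower members with the largest fold change among those with 1 sign in every library group. The others are given by ranges and counts.

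Alternatives were a threshold of 0.05, RLE factors, totals only, no filter, a block for library group, other class limits, DESeq2 1.42.0, pseudocounts of 0.1 and 10 CPM, a minimum of 5 counts or 1 count in place of 10 CPM, leaving out each library group, leaving out the cells of unusual depth, and leaving out the 17 cells with 3 or more genes of another type at 50 CPM. The last, for mean log2 differences, and thinning with a limit of 1 count were chosen after seeing the data. The cells were checked for other types with lists for astroglia, oligodendrocyte lineage, GABAergic neurons and microglia, and for Purkinje cells, unipolar brush cells and endothelium with pericytes, of which the last 3 lists gave 0 cells. The granule lineage list served to check the labelled cell type. No 2 cells held identical values.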

Additional observations from a re-analysis of the deposited data

Results flagged for a closer look

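In 96 groups of 6 library group sums, 10 had a highest or lowest value that stood apart by Dixon's criterion (a gap over 0.625 of the range), where chance gives about 1 in 20. All values are log2(CPM + 1) of the summed counts. In non-cycling cells, the lowest group stood at 1.05 for Plxna3 (next 6.07) and at 0.12 for Ephb1 (next 5.29), and the highest at 6.58 for Sema5a (next 2.32). In non-cycling cells with more Dcx, the lowest group stood at 3.27 for Dcc (next 6.52) and at 1.69 for Plxna3 (next 6.50), and the highest at 4.87 for Sema5a (next 0.97). In non-cycling cells with less Dcx, the highest group stood at 3.94 for Sema4f (next 0.12), at 6.19 for Epha3 (next 1.92), at 5.60 for Sema7a (next 0.96) and at 3.17 for Sema5b (next 0.87).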

How the results depend on the processing

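Between cycling and non-cycling cells, the 2 genes called by edgeR became 6 at a threshold of 0.05, 6 with RLE factors, 0 with other class limits, 1 without cells of unusual depth, 1 without cells with genes of another type, 0 to 1 when each library group was left out, and 376 with DESeq2. Between Dcx-high and Dcx-low cells, the 0 genes called became 655 at a threshold of 0.05, 1 without cells with genes of another type and 1492 with DESeq2, and stayed at 0 without each library group. Other class limits gave no value there, since all 109 cells had a Dcx count. Among non-cycling cells DESeq2 called 420 genes in place of 0. The cause of these differences was not tested.

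A replicate block for library group gave 0 calls between cycling and non-cycling cells and 372 between Dcx-high and Dcx-low cells, 4 members among them (Ephb1, Efnb2, Epha7 and Sema4f). For these 4 the direction of the sums was fixed in advance by the filter. The classes of a library group deviated together only weakly (correlation of 0.0435 to 0.125 between cycling and non-cycling cells, 0.0422 to 0.126 between Dcx-high and Dcx-low cells and 0.0174 to 0.0699 among non-cycling cells). The edgeR test on sums was therefore run without pairing, while the sign-flip tests used differences within library groups. The block also turned the log2 fold change of Dcc to -0.90 for cycling cells and to 0.34 for non-cycling cells with more Dcx.

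With other class limits, the log2 fold change in cycling cells turned to 1.70 for Unc5c, -0.25 for Dcc, 1.45 for Robo2 and 0.52 for Sema4g, and that of Dcc in non-cycling cells with more Dcx to 0.63. When each library group was left out, Dcc ran from -0.68 (without group 2) to 1.08 in cycling cells and from -0.60 to 0.80 (without group 1) in non-cycling cells with more Dcx. Ntn1 ran from 1.77 to 3.63 and Unc5c, with more Dcx, from 2.02 to 2.93.

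The mean log2 difference of Robo2 in cycling cells turned to -0.040 with a pseudocount of 10 CPM, -0.053 without cells of unusual depth and -0.11 without cells with genes of another type, which also turned Unc5c to 0.058 in cycling cells and Robo2 to -0.020 in Dcx-high cells. Leaving out each library group gave -0.16 to 0.65 for Robo2 and -1.03 to 0.0013 for Unc5c in cycling cells, and -0.0032 to 1.39 for Robo2 and -0.13 to 0.77 for Dcc in non-cycling cells with more Dcx. Of 140 alternative log2 fold changes 11 changed direction, as did 11 of 180 mean log2 differences. RLE factors moved the split of genes at an unadjusted p under 0.05 in cycling cells from 267 higher and 399 lower to 381 and 303, and library totals to 278 and 276. Depth limits members found in few cells, and with 9 Dcx-low cells a share of 0 allows up to 33.3%.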
